A study of Caenorhabditis elegans with 6 samples.

Results

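The aspartyl protease genes *asp-1* to *asp-6* and *asp-12* of *C. elegans* are described here in mid-aged worms with reduced mRNA decapping. They are 7 of the 17397 genes with a value on the arrays. *asp-1* to *asp-6* were taken by their consecutive WormBase identifiers. *asp-12* was taken by its identifier from the genes that the study had listed as differentially expressed on these same arrays, so its difference between the strains is given as a description, without a test. Total RNA came from 3 populations of *dcap-1(rf)* worms and 3 populations of wt worms, each of 200 to 300 whole animals. The *dcap-1(rf)* strain carries the reduction-of-function allele *tm3163* of *dcap-1*, which encodes a subunit of the decapping enzyme. The wt strain is N2. Both strains were on day 9 of adulthood and were grown at 20 °C on UV-killed OP50 bacteria with 10 µg/mL FUDR, a drug that keeps progeny from hatching. RNA of each population went onto a separate Affymetrix *C. elegans* array, and the values are log2 values made with RMA (robust multi-array average), 1 per gene and array.

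Aspartyl proteases cut proteins with a pair of aspartate residues in the active site and work best at acid pH. Those of the cathepsin D type are made as inactive precursors and act in lysosomes, which intestinal cells of the worm hold in large number and use to digest food, membrane and worn-out proteins. In *C. elegans*, *asp-1* is known as an intestinal protease, *asp-3* and *asp-4* are known as executioners of necrotic neuronal death downstream of calpains, and *asp-12* has been tied to signals that leave the intestine when protein folding is disturbed. The arrays measured RNA of whole worms, so neither the intestine nor the lysosome was measured apart. In such bulk RNA, more cells of a type and more RNA per cell cannot be told apart.

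In the annotation of WBcel235, the members lie on chromosomes V and X. *asp-6* (chromosome V, 8267511 to 8268937), *asp-12* (chromosome V, 8270643 to 8272056) and *asp-5* (chromosome V, 8272385 to 8274044) follow each other, with 1705 bp between *asp-6* and *asp-12* and 328 bp between *asp-12* and *asp-5*. The pseudogene *asp-11* comes 308 bp after *asp-5*, and the 4 genes span 8247 bp. *asp-2* lies on the same chromosome from 9203077 to 9204698. *asp-1* (chromosome V, 19049562 to 19050752) lies 4708 bp from *asp-15*, with *asp-16* and *asp-17* close by. *asp-3* (6791064 to 6792709) and *asp-4* (13218985 to 13221462) are on chromosome X. Of the 18 genes named *asp* in that annotation, 14 are on chromosome V. Genes of such a family can share probe sequence, and signal shared between *asp-5*, *asp-6*, *asp-12* and *asp-11* was not separated here. *asp-12* is the member for which the study had qRT-PCR primers made. They are shown as sequences designed for 1 gene of the row, and every base is in lower case since none is marked; the qRT-PCR values were not analysed here.
asp-12/F: aggaagtaactgcgatggaac
asp-12/R: gttgttctgaagcaccaccaa

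*dcap-1* itself had values of 4.50, 4.52 and 4.65 in *dcap-1(rf)* and 5.44, 5.30 and 5.26 in wt, with all mutant arrays below all wt arrays. Its log2 fold change was -0.77 (adjusted p = 0.00469 by limma), and it remained differentially expressed whichever array was removed. Array medians were 2.18 to 2.24, and the median SD between replicates was 0.11 in *dcap-1(rf)* and 0.10 in wt. The 25% of genes with the lowest average were removed, which left 13047 genes, and all 7 members were among them. The term differentially expressed is used for an adjusted p under 0.05, where the p-values are those of limma, adjusted over all of these genes after Benjamini and Hochberg. The deposited table used here holds no detection calls, and 3 arrays per group limit the precision of every value.

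Of *asp-1* to *asp-6*, 1 gene, *asp-1*, was differentially expressed, and it was upregulated. Over all genes tested the share was 1.62%, with 1.46% upregulated and 0.161% downregulated. At an unadjusted p under 0.05 there were 3 of the 6 genes, *asp-1*, *asp-2* and *asp-3*, against 13.8% of all genes tested. Of the same 6 genes, 3, *asp-1*, *asp-2* and *asp-3*, were higher on every *dcap-1(rf)* array than on any wt array, while the arrays of *asp-4*, *asp-5* and *asp-6* overlapped between the strains. Over all genes tested, the arrays did not overlap and were higher in the mutant for 8.93% of genes. They did not overlap and were lower in the mutant for 9.67% of genes and for none of these 6 genes. The log2 fold changes of *asp-1* to *asp-6* ran from -0.12 to 0.73 with a median of 0.23, and the median over all genes tested was -0.02. *asp-12*, chosen on this contrast, is left out of these counts. With it the median was 0.37. Among the 270 genes with an average at or above the lowest average of a member, 8.3, the median log2 fold change was 0.02, the share differentially expressed was 1.11%, and the arrays of 14.8% did not overlap and were higher in the mutant.

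**Figure D1:**
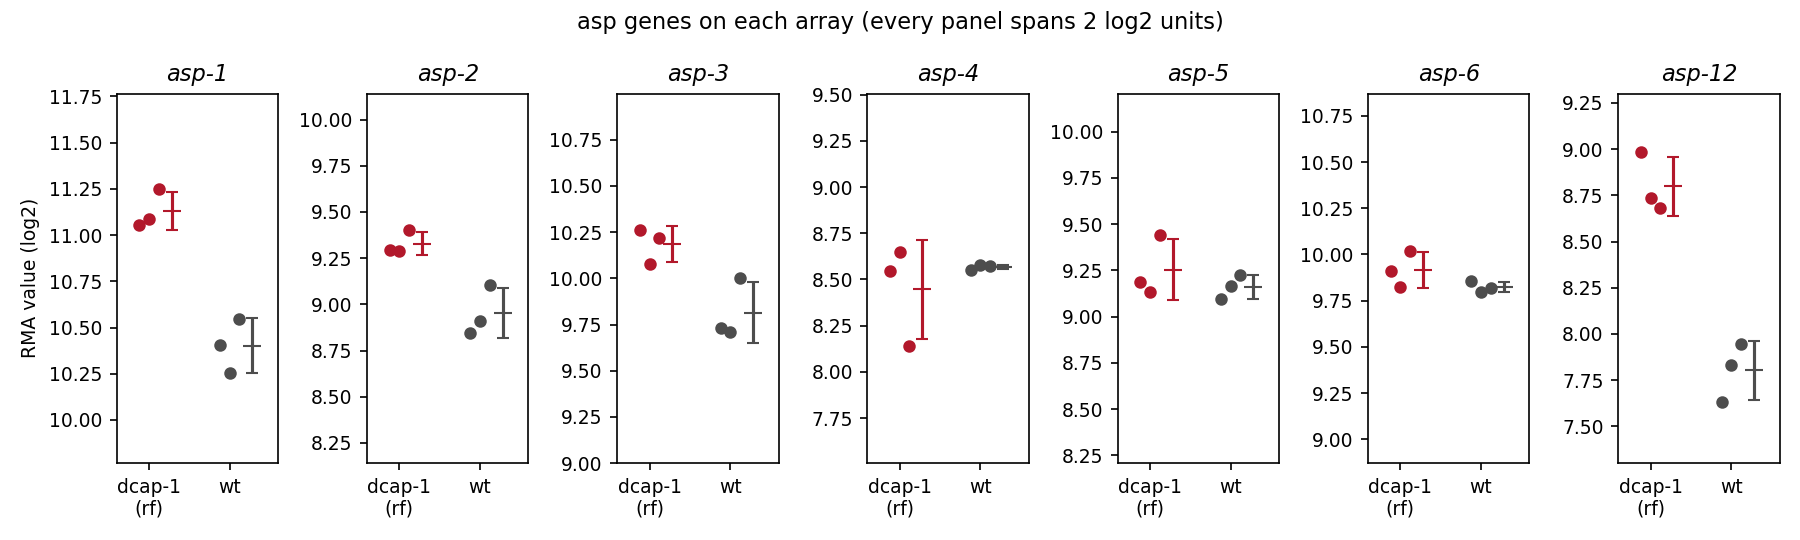
RMA values (log2, y axis) of the 7 asp genes on each array, with dcap-1(rf) left of wt; points are arrays in the order of replicates 1 to 3, and the bar beside them is the mean ± SD (n = 3). Every panel spans the same range of log2 units. The groups are apart for asp-1, asp-2, asp-3 and asp-12 and overlap for asp-4, asp-5 and asp-6.

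*asp-1* (WBGene00000214_at), the intestinal protease, had values of 11.06, 11.09 and 11.25 in *dcap-1(rf)* and 10.40, 10.25 and 10.55 in wt. All mutant arrays lay above all wt arrays, with a gap of 0.51 between the lowest mutant and the highest wt array. Its mean was 11.13 ± 0.10 in *dcap-1(rf)* and 10.40 ± 0.15 in wt (SD, n = 3 each). This was a log2 fold change of 0.73 (standard error 0.10, 95% interval 0.50 to 0.96), which is 1.66-fold, with adjusted p = 0.0124. With 5 arrays, *asp-1* stayed upregulated in 3 fits of 6. The others lacked *dcap-1(rf)* replicate 2 (adjusted p = 0.0571), wt replicate 1 (adjusted p = 0.0736) or wt replicate 2 (adjusted p = 0.0646). Its log2 fold change stayed between 0.66 and 0.80 in these fits. In all, 1.42% of genes tested had a larger log2 fold change than *asp-1*. On *dcap-1(rf)* replicates 2 and 3 the value of *asp-1* was the highest of any gene on the array, so it was at the upper end of the scale of these arrays. Whether the scanner signal was saturated there was not tested.

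*asp-12* (WBGene00017678_at), the member tied to intestinal stress signals, had values of 8.98, 8.73 and 8.68 in *dcap-1(rf)* and 7.63, 7.83 and 7.95 in wt. The lowest mutant array was 0.73 above the highest wt array. The means were 8.80 ± 0.16 in *dcap-1(rf)* and 7.80 ± 0.16 in wt (SD, n = 3 each). The log2 fold change was 1.00 (standard error 0.12), which is 1.99-fold. With each array left out in turn it stayed between 0.90 and 1.07. Since *asp-12* was chosen on this contrast, this size is not set against that of other genes.

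*asp-2* (WBGene00000215_at) had values of 9.29, 9.29 and 9.40 in *dcap-1(rf)* and 8.84, 8.91 and 9.11 in wt. The groups did not overlap, but wt replicate 3 came within 0.18 of the lowest mutant array. The log2 fold change was 0.37 (standard error 0.09, 95% interval 0.16 to 0.58) and the adjusted p was 0.116, so *asp-2* was not differentially expressed over all genes tested. Of the 9 other settings tried on all arrays, 1 took it past the threshold, a prior variance with a trend and robust estimation (adjusted p = 0.0461). The highest adjusted p of these settings was 0.129.

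*asp-3* (WBGene00000216_at), the first of the pair known from necrosis, had values of 10.26, 10.08 and 10.22 in *dcap-1(rf)* and 9.73, 9.71 and 10.00 in wt. Here too wt replicate 3 was the highest of the wt arrays, only 0.07 below *dcap-1(rf)* replicate 2. The log2 fold change of 0.37 (standard error 0.10, 95% interval 0.13 to 0.61) did not pass the threshold (adjusted p = 0.164). It did not pass in any of these 9 settings or with any array left out, and the lowest adjusted p among them was 0.0794.

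*asp-4* (WBGene00000217_at), the other protease of the pair, had values of 8.54, 8.65 and 8.14 in *dcap-1(rf)* and 8.55, 8.58 and 8.57 in wt. Mutant replicates 1 and 2 lay close to the wt arrays, and mutant replicate 3 lay 0.43 below the highest of them. The SD was 0.27 in *dcap-1(rf)*, the largest of any member, and 0.01 in wt, the smallest. The log2 fold change was -0.12 (95% interval -0.42 to 0.18, adjusted p = 0.721), and without *dcap-1(rf)* replicate 3 it was 0.031. The responses of *asp-3* and *asp-4* were not tested against each other.

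*asp-5* (WBGene00000218_at) and *asp-6* (WBGene00000219_at) flank *asp-12*, and their values overlapped between the strains. *asp-5* had 9.19, 9.13 and 9.44 in *dcap-1(rf)* and 9.09, 9.17 and 9.22 in wt, with mutant replicates 1 and 2 inside the wt range. Its log2 fold change was 0.09 (95% interval -0.14 to 0.32, adjusted p = 0.719). *asp-6* had 9.91, 9.82 and 10.02 in *dcap-1(rf)* and 9.86, 9.80 and 9.82 in wt, with mutant replicate 2 inside the wt range. Its log2 fold change was 0.09 (95% interval -0.09 to 0.27, adjusted p = 0.632). The difference in log2 value between *asp-12* and *asp-5* was -0.21, -0.40 and -0.76 in *dcap-1(rf)* and -1.46, -1.33 and -1.28 in wt, so it was closer to 0 on each mutant array than on any wt array. Between *asp-12* and *asp-6* it was -0.93, -1.09 and -1.34 in *dcap-1(rf)* and -2.23, -1.97 and -1.87 in wt. These differences are on the log2 scale and compare the strains, not the amounts of the genes. Since *asp-12* was chosen on this contrast, they are a description.

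**Figure D2:**
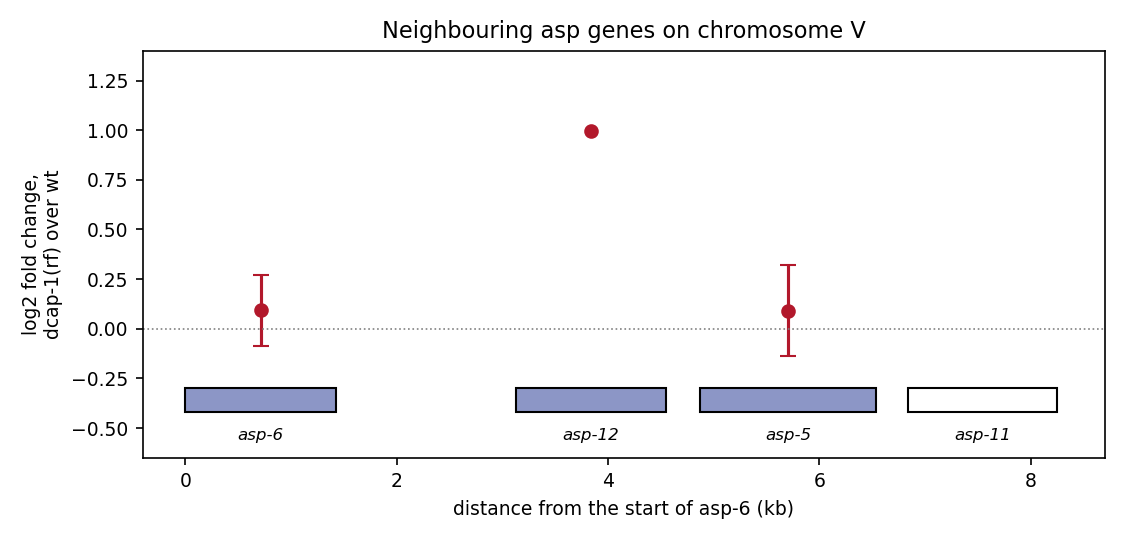
Log2 fold change of dcap-1(rf) over wt (y axis; bars are 95% intervals, n = 3 arrays per strain, and asp-12 has none since it was chosen on this contrast) of the asp genes that follow each other on chromosome V, against the distance from the start of asp-6 in kb (x axis). Boxes are the genes, to scale along the x axis; asp-11, in white, is a pseudogene with no value here. asp-12 at 1.00 stands between asp-6 and asp-5, both at 0.09.

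**Figure D3:**
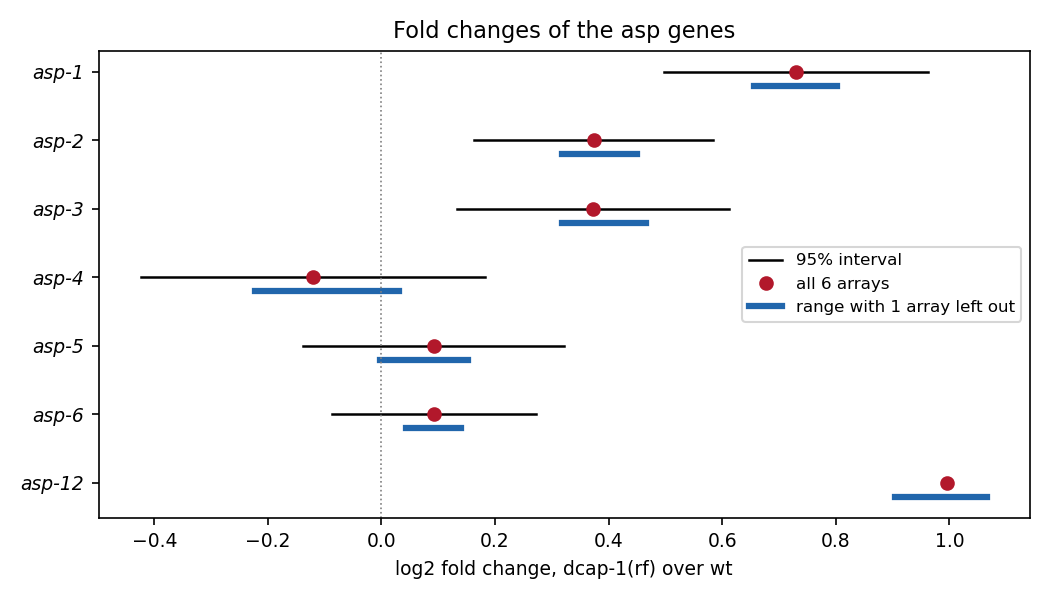
Log2 fold change of dcap-1(rf) over wt (x axis) of each asp gene with all arrays (red points, with the 95% interval as a black line for all but asp-12) and the range of the 6 fits with 1 array removed (blue bars). The ranges of asp-1, asp-2, asp-3, asp-6 and asp-12 stay above 0, and those of asp-4 and asp-5 reach across it. The position of asp-12, taken from a list made on these arrays, is a description.

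**Figure D4:**
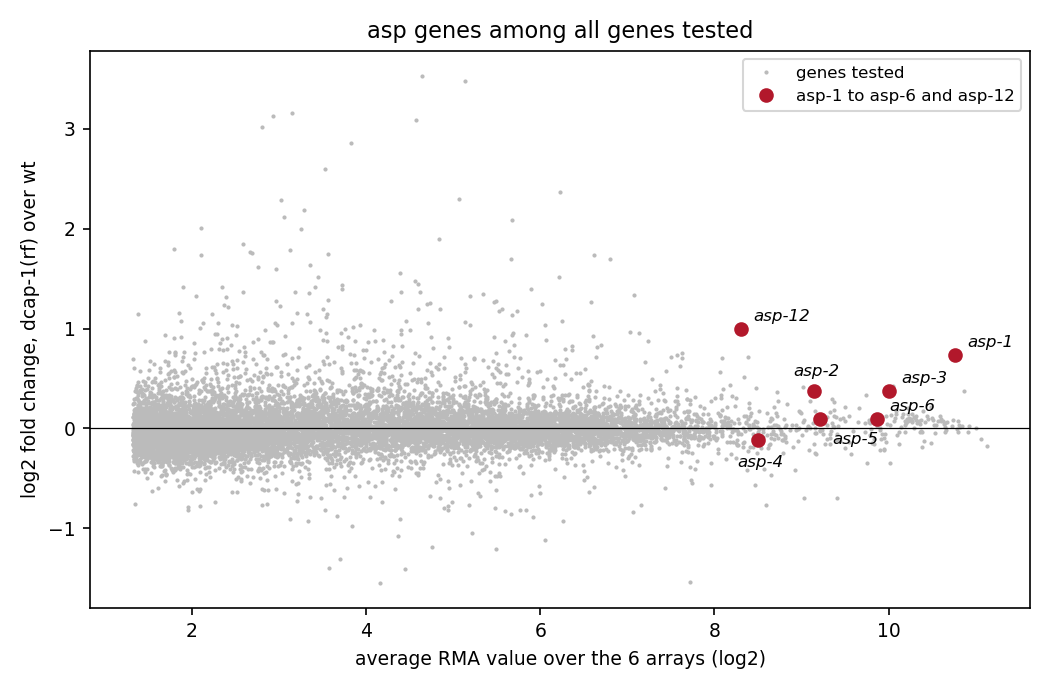
Log2 fold change of dcap-1(rf) over wt (y axis) against the average value over the 6 arrays (log2, x axis) for the 13047 genes tested (grey) and the 7 asp genes (red). All asp genes lie at averages of 8.3 or more, and asp-1 stands above most grey points there. asp-12, chosen on this contrast, is shown for its position only.

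Deviations of the members on single arrays ran in both directions. For each gene the deviation of an array from the mean of its strain was taken, and Pearson's r between 2 genes over the 6 arrays is given as a description, since the arrays share the strain means that were removed and the same normalization. Over the 21 pairs r ran from -0.94 to 0.81 with a median of 0.36, and 13 pairs had an r above 0. Among *asp-1*, *asp-2* and *asp-3* all pairs were above 0, with r of 0.76 (*asp-1* and *asp-2*), 0.68 (*asp-1* and *asp-3*) and 0.81 (*asp-2* and *asp-3*). On wt replicate 3, these 3 genes and *asp-12* were 0.14 to 0.19 above their wt means. *asp-5* had r of 0.70 with *asp-2*, 0.64 with *asp-1* and 0.78 with *asp-6*. *asp-4* had r of -0.92 with *asp-5* and -0.94 with *asp-6*, the lowest of all pairs, but -0.39 with *asp-2*, -0.24 with *asp-3* and 0.36 with *asp-12*. On *dcap-1(rf)* replicate 3, *asp-4* was 0.30 below its mutant mean while *asp-5* was 0.19 and *asp-6* 0.10 above theirs. Without that array the r of *asp-4* with *asp-5* was -0.23, that of *asp-4* with *asp-6* was -0.93 and that of *asp-5* with *asp-6* was -0.030. *asp-12* had an r of -0.07 with *asp-5* and -0.31 with *asp-6*, its neighbours on the chromosome.

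**Figure D5:**
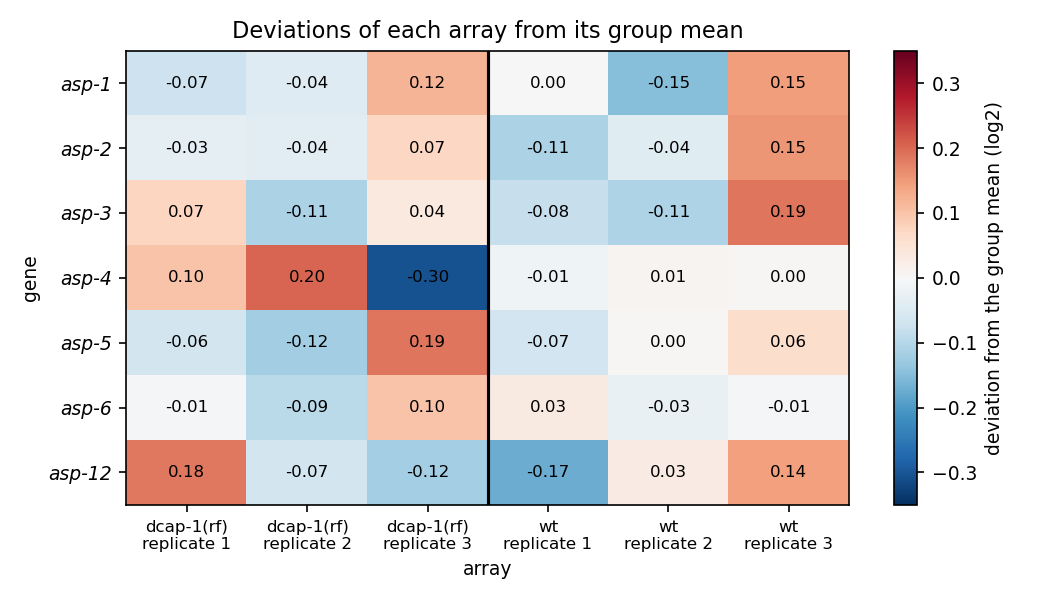
Deviation of each array (x axis, dcap-1(rf) arrays left of wt arrays) from the mean of its own strain, in log2 units, for each asp gene (y axis); red is above the mean and blue below. asp-4 on dcap-1(rf) replicate 3, at -0.30, is the largest deviation, and wt replicate 3 is above the wt mean for asp-1, asp-2, asp-3 and asp-12.

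The other genes of the pathway were counted only where a table of the study paired their identifier with a name. Outside the genes that the study listed as differentially expressed, those names belong to genes with the larger positive log2 fold changes. For example, *cal-2* at 0.155 had a name, and WBGene00000195 at 0.152 had none. Most named genes are thus higher in the mutant by construction, and only the calls are counted. *cpr-6*, *aagr-1* and *hex-1*, the list genes named here with lower values in the mutant, stood in that list of the study. Since it was chosen on these same arrays, the differences of these genes are given as a description, without a test. Of the 211 genes differentially expressed over all genes tested, 205 had a name and 6 had none, so that having a name itself went with a call. Of all genes with a name 10.3% were differentially expressed, and the counts of the lists below are to be read against that share. No list had more than 1 call. Among the other *asp* genes only *asp-14*, on chromosome X, had a name. Its values were 7.51, 7.76 and 7.24 in *dcap-1(rf)* and 7.28, 7.43 and 7.27 in wt, and they overlapped (log2 fold change 0.18, adjusted p = 0.588).

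The cysteine proteases of the cathepsin type share the acid compartment with the aspartyl proteases. Of the 11 genes of the *cpl*, *cpr* and *cpz* families, 3 had a name, and 1 of these, *cpr-3*, a cathepsin B relative, was upregulated, where the share among named genes was 10.3%. *cpr-3* had 7.38, 7.17 and 7.10 in *dcap-1(rf)* and 5.98, 5.94 and 5.94 in wt, the mutant arrays all above the wt arrays (log2 fold change 1.27). The study had also taken *cpr-3* from the genes it found upregulated on these same arrays, so the call is not read as a result. *cpr-6*, also related to cathepsin B, had 8.61, 8.46 and 8.17 in *dcap-1(rf)* and 8.93, 8.74 and 8.98 in wt. Its arrays did not overlap, and its log2 fold change of -0.47 is a description only. *cpl-1*, the cathepsin L gene, had a log2 fold change of 0.21 (adjusted p = 0.472). WBGene00000784 and WBGene00000785, between *cpr-3* and *cpr-6* in the run of identifiers, had no name and were not counted. Their log2 fold changes were -0.13 and -0.06 (adjusted p = 0.848 and 0.944 by limma). WBGene00000781 and WBGene00000782, just before *cpr-3* and also without a name, had 0.02 and -0.15 (adjusted p = 0.981 and 0.719).

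Of 33 other lysosomal hydrolases and membrane proteins 8 had a name. The only call among them fell on *aagr-1*, an acid alpha-glucosidase relative, where the share among named genes was 10.3%. Since the study had listed *aagr-1* on this contrast, the call is not read as a result. Its values were 5.56, 5.55 and 5.62 in *dcap-1(rf)* and 6.02, 5.93 and 6.12 in wt (log2 fold change -0.45). With each array left out in turn, its log2 fold change stayed between -0.49 and -0.40. *aagr-1* lost the call in each of these fits and when replicate numbers were fitted as blocks. *hex-1*, a hexosaminidase gene, had 5.17, 5.20 and 4.29 in *dcap-1(rf)* and 6.04, 6.04 and 6.21 in wt. Mutant replicate 3, the array on which *asp-4* and *cpr-6* were also lowest, stood far below the other mutant arrays. The log2 fold change of *hex-1*, -1.21, is a description only, since the study had listed *hex-1* on this contrast. *gba-4*, a glucocerebrosidase relative singled out after its values were seen, went the other way, with 6.08, 5.87 and 6.20 in *dcap-1(rf)* and 5.26, 5.16 and 5.59 in wt. Its log2 fold change, 0.72, missed the threshold (adjusted p = 0.0505) and passed it in 7 of the 9 other settings on all arrays. With an array left out, *gba-4* passed in 1 fit of 6, and the highest adjusted p was 0.208. Since *gba-4* was picked on its values, these numbers are a description. *asah-1*, an acid ceramidase gene, had the largest positive log2 fold change of the list, 0.88 (adjusted p = 0.268).

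The V-ATPase pumps the protons that keep lysosomes acid. Of its 21 subunit genes in the list 10 had a name, and *vha-6*, which encodes a subunit of the apical pump of the intestine, was upregulated. This is 1 of 10, where the share among named genes was 10.3%. It had 6.48, 6.53 and 6.72 in *dcap-1(rf)* and 5.89, 5.93 and 5.99 in wt, with a gap between the groups (log2 fold change 0.64, adjusted p = 0.0123). *vha-6* lost the call without *dcap-1(rf)* replicate 2, wt replicate 1 or wt replicate 2. The other 9 named subunits had log2 fold changes of 0.16 to 0.33 and did not pass the test. The choice of names sets the lower end of that range, so it does not describe the subunits without a name. None of the 8 named lysozyme genes of 16 passed the test. Among these, *ilys-4*, with 0.88 (adjusted p = 0.054), had the largest log2 fold change, and none was below 0, as the choice of names fixes. Of the 5 calpain and calcium-release genes set upstream of *asp-3* and *asp-4* in necrosis none had a name here.

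Of 12 regulators of gut, lysosome and immunity genes 4 had a name and none was differentially expressed. They had log2 fold changes of 0.20 to 0.43, positive by the choice of names. The highest was that of *zip-2*, a bZIP factor of the pathogen response (adjusted p = 0.156). Of the 4 genes set for the chaperone signaling that involves *asp-12*, *pqm-1* and *clec-41* had a name. *pqm-1* had 5.45, 5.62 and 5.68 in *dcap-1(rf)* and 4.96, 5.01 and 5.63 in wt. Wt replicate 3, which was also the highest wt array of *asp-12*, lay among the mutant arrays (log2 fold change 0.39, adjusted p = 0.391). *clec-41*, a C-type lectin gene, had a log2 fold change of 0.17 (adjusted p = 0.646).

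Of 11 markers of the intestine 5 had a name, and 1 of them passed the test, where the share among named genes was 10.3%. All 5 had positive log2 fold changes, as the choice of names fixes, so their levels are not compared between the strains. Within wt, their mean log2 value was 3.81, 3.94 and 4.19 on replicates 1 to 3. The wt array with the highest mean was replicate 3, on which *asp-1*, *asp-2*, *asp-3* and *asp-12* were also highest among the wt arrays. This was not particular to the intestine. Named markers of muscle and neurons, V-ATPase subunits and lysozymes also had their highest wt mean there (4.49, 5.12, 6.00 and 5.22). The named markers of hypodermis and sperm had their lowest wt values there (5.08 and 0.97). In the fit with array weights, wt replicate 3 had the lowest weight of the 6. Its weight was 0.71, against 1.26 for wt replicate 1 and 1.43 for wt replicate 2. *ifb-2*, an intermediate filament gene of the intestine, was upregulated (log2 fold change 0.74, adjusted p = 0.0296), and it stayed so in 1 fit of 6 with an array removed. The lowest log2 fold change of the 5 was that of *elt-2*, the GATA factor of the intestine, 0.20 (adjusted p = 0.294). *vit-2*, *vit-5*, *vit-6* and *ges-1* were among the 6 without a name. The part of the intestine in the results on *asp-1* and *asp-12* was not tested. Named markers of muscle (3 of 6), neurons (2 of 5), hypodermis (1 of 5) and sperm (1 of 8) had log2 fold changes between 0.16 and 0.62. The choice of names sets the lower end of that range. None of these markers passed the test, and none of the 8 germline markers had a name.

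For each member the named genes with the most similar profile over the 6 arrays were searched among 1986 genes, nearly all with a positive log2 fold change, by Pearson's r of the values, which 2 genes with a difference between the strains share by that alone. Closest to *asp-12* were *Y62H9A.3*, *fbxb-43* and *lido-8*, with r of 0.99 each. Closest to *asp-1* were *F57A10.4*, *spp-21*, a saposin-like gene, and *T28F4.1*, also with r from 0.99 to 1.00. *asp-2* was closest to *inx-17*, an innexin gene, *hsp-17*, a small heat shock protein gene, and *C16A3.6*, and *asp-3* to *upp-1*, *acox-1.5* and *bath-3*. *asp-5* was closest to *F52E10.4*, *snpc-1.3* and *his-70*, and *asp-6* to *kel-10*, *C12D8.9* and *F14B8.6*, with r of 0.96 to 0.97. For *asp-4*, whose log2 fold change was -0.12, the highest r in this search were 0.84 (*bgal-1*), 0.82 (*timp-1*) and 0.79 (*gsnl-1*). Of the 1994 named genes tested, only 53 had a negative log2 fold change. The genes closest to *asp-5* and *asp-6* had log2 fold changes of 0.17 to 0.22, and genes with smaller positive changes mostly had no name. Whether genes without a name had a profile nearer to *asp-4*, *asp-5*, *asp-6* or another member was not tested.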

How the data were processed

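The authors deposited log2 expression values, 1 per gene and array, computed by RMA with default settings and a BrainArray ENSG probe annotation; the submitters' processing notes name R 3.3.0 and WBcel235. The methods also name surrogate variable analysis, and whether the deposited log2 values carry it is not given in the sources used here. RMA brings the arrays to a common scale, so a change in total mRNA per worm is not seen in these values. limma 3.58.1 (R 4.3.3) was fitted here to all genes with strain as the term, then 25% of genes, those with the lowest averages, were removed, and the Benjamini-Hochberg adjustment ran over 13047 genes. Standard errors and 95% intervals are the moderated ones. Plots were drawn in Python 3.11.15. Other filters, priors, scalings, weights and covariates were tried, and each array was left out in turn.

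Names came from the study's tables for 1994 genes, and *asp-4*, *asp-5* and *asp-6* were named from the run of identifiers. Members and lists were chosen with earlier results of these data known. Named by rule are all members, *dcap-1*, other *asp* genes, and of each list the called genes and those with the largest change in each direction. The named genes closest to each member in profile are also given. Beyond this rule stand *gba-4*, picked after its values were seen, *cpl-1*, *clec-41*, *elt-2*, *cal-2*, the intestinal markers without a name and the genes given by identifier alone. The titles number biological replicates and do not say whether equal numbers belong together. The main fit did not pair the arrays by number.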

Additional observations from a re-analysis of the deposited data

How the results depend on the processing

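Settings varied 1 at a time were the filter (none, or 50% of genes removed), the prior variance (trend and robust), covariates (1 or 2 residual components), centring, quantile normalization, array weights, the replicate block and the arrays included. The direction of *asp-1*, *asp-2*, *asp-3*, *asp-6* and *asp-12* was the same in all of them. *asp-1* was called in all 9 alternatives with all arrays, while *asp-2* was called only with the trend (log2 fold change 0.37), which made 2 calls among *asp-1* to *asp-6*; with an array left out these calls numbered 0 to 1, and 0 without *dcap-1(rf)* replicate 2, wt replicate 1 or wt replicate 2. With an array left out *asp-1* had log2 fold changes of 0.66 to 0.80 and *asp-2* of 0.32 to 0.45. *asp-4* had -0.22 to 0.031 and *asp-5* -0.0020 to 0.15, turning sign without *dcap-1(rf)* replicate 3; the cause was not tested. The r of *asp-5* with *asp-6* turned to -0.030 without that array, a choice made after seeing the data.

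Genes called over all genes tested numbered 328 with 1 component and 411 with 2 components, and 84 to 306 with an array left out. Removing *dcap-1(rf)* replicate 2 left 122 calls, removing wt replicate 1 left 94 and removing wt replicate 2 left 84. Those higher numbered 327 with 2 components and 75 to 280 with an array left out. Those lower numbered 54 with 1 component, 84 with 2, 35 with centring, 34 after quantile normalization, 35 under array weights and 33 with the replicate block, and 9 to 26 with an array left out. Calls among the named lysosomal enzymes and membrane proteins numbered 3 with the trend, 1 component, 2 components, centring, quantile normalization and array weights, 2 with the replicate block, and 0 to 1 with an array left out. Where *aagr-1* or *hex-1* was among them, the study had listed it on these same arrays, so these numbers are a description. Those among V-ATPase subunits numbered 2 with the trend and 0 to 1 with an array left out. Those among lysozymes numbered 1 with the trend, 2 components, centring, quantile normalization and array weights, and 0 to 1 with an array left out. Those among regulators numbered 0 to 1 with an array left out. Those among intestinal markers numbered 2 with 2 components and with the replicate block, and 0 to 1 with an array left out.

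Deviations of arrays with the same replicate number correlated with r of 0.06, 0.10 and 0.14 over genes, and each array correlated best with its own number, as a hint from the data and not the design. With the replicate block the adjusted p of *asp-1* was 0.0145, and no call among *asp-1* to *asp-6* changed. The number of arrays sets the precision of every value.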
